A study of Mus musculus with 10 samples.

Results

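Hemojuvelin and 9 further genes of iron handling were followed in whole mouse hearts after forced treadmill training. The 10 genes were Hjv, Hamp, Neo1, Tfrc, Slc40a1, Slc11a2, Fth1, Ftl1, Cp and Hfe, a named list taken from the 56748 genes of the count tables, of which 15454 had enough counts to be compared. The list was drawn up with the lower Hjv level of the training hearts already known, so the differences between training and sedentary hearts in these 10 genes are descriptions and carry no p value. All 10 genes passed the filter on low counts.

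The training group held 5 male wild type (WT) C57BL/6 mice that ran on a treadmill at 15 m/min for 120 min per day on 5 days per week over 8 weeks, and the sedentary group held 5 male WT C57BL/6 mice that did not train. The mice were bought at 8 weeks of age and were rested and acclimatized before training began. Whole hearts with both atria were taken, and 1 poly-A RNA library was sequenced per heart. Levels are given as CPM, counts scaled to a common library size that was corrected by TMM factors, and differences as log2 fold changes, training over sedentary, with their standard error (SE). A gene was called higher or lower at a false discovery rate below 0.1 in edgeR's quasi-likelihood test over all genes.

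Iron enters most cells as iron-loaded transferrin through the transferrin receptor, is stored in shells of ferritin heavy and light chains, and leaves through ferroportin, the product of Slc40a1. Hepcidin, the peptide made from Hamp, closes this exit by sending ferroportin for degradation. In the liver, hemojuvelin acts as a co-receptor for bone morphogenetic proteins (BMPs) and raises hepcidin transcription through SMAD proteins, with neogenin (Neo1) as a binding partner. Hjv is known to be abundant in skeletal muscle and heart, and the heart makes its own hepcidin. When iron is scarce, iron regulatory proteins bind hairpins called iron responsive elements, which blocks translation where the hairpin lies in the 5′ UTR and protects the mRNA where it lies in the 3′ UTR.

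Matches to a simple form of these hairpins are shown for the 10 mRNAs. RNA levels do not report the control by such hairpins in full. The search letters were a C, any 5 bases, the loop CAGTGN and 5 bases that pair with the 5 before the loop, G-T pairs included. The transcript strand alone was read, in the UTRs of coding transcripts of GENCODE M39 on GRCm39. There were 7 elements of 29 bases in 4 of the 10 genes, printed 5′ to 3′ with the loop in capitals.
Fth1, 5′ UTR, chr19:9960096-9960124, plus strand: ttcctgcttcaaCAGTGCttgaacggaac
Ftl1, 5′ UTR, chr7:45109203-45109231, minus strand: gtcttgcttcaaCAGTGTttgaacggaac
Slc40a1, 5′ UTR, chr1:45964625-45964653, minus strand: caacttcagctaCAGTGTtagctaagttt
Tfrc element 1, 3′ UTR, chr16:32450037-32450065, plus strand: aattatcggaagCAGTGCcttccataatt
Tfrc element 2, 3′ UTR, chr16:32450416-32450444, plus strand: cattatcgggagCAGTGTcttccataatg
Tfrc element 3, 3′ UTR, chr16:32450481-32450509, plus strand: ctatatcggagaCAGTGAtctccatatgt
Tfrc element 4, 3′ UTR, chr16:32450528-32450556, plus strand: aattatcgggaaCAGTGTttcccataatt
Among 21574 coding genes, 0.111% held these letters in a 5′ UTR and 0.575% in a 3′ UTR. These shares come from the canonical transcript of each gene alone, a narrower search than that of all coding transcripts in the 10 genes. The matches in Fth1, Ftl1 and Slc40a1 lay ahead of the coding sequence, and the 4 matches in Tfrc lay behind it. No match was found in the UTRs of Hjv, Hamp, Neo1, Slc11a2, Cp or Hfe, which says only that these letters are not there. The search asked for all 5 pairs, so a hairpin with a mismatch among them was missed in any of the 10 genes.

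Per transcript length, ferritin heavy chain was the most abundant of the 10 mRNAs. The median over the 10 hearts was 1643 TPM (the length-corrected transcript abundance of the authors) for Fth1, which ranged from 1562 to 1768 and ranked 43 among 22255 genes with a median above 0. Ftl1 followed with a median of 394 TPM (326 to 484), Hjv with 130 TPM (116 to 143) and Cp with 42.4 TPM (37.4 to 57.7). The ranges of these 4 genes did not meet.

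The other 6 genes formed a lower tier whose ranges overlapped, so their order was within the spread between hearts. Median levels were 19.3 TPM for Hfe, 19.2 TPM for Neo1, 18.7 TPM for Hamp, 15.5 TPM for Slc11a2, 15.0 TPM for Tfrc and 12.5 TPM for Slc40a1. Only 2.58% of genes had a higher median than Hjv, which placed the co-receptor well above its partner Neo1 and above both Tfrc and Slc40a1 in every heart. The authors' gene model for Hjv had 2028 bases (training heart 1), shorter than the 5062 of its current transcript Hjv-201. The TPM of Hjv depends on that length, and its rank and separation from Cp were not computed at the longer one.

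**Figure D1:**
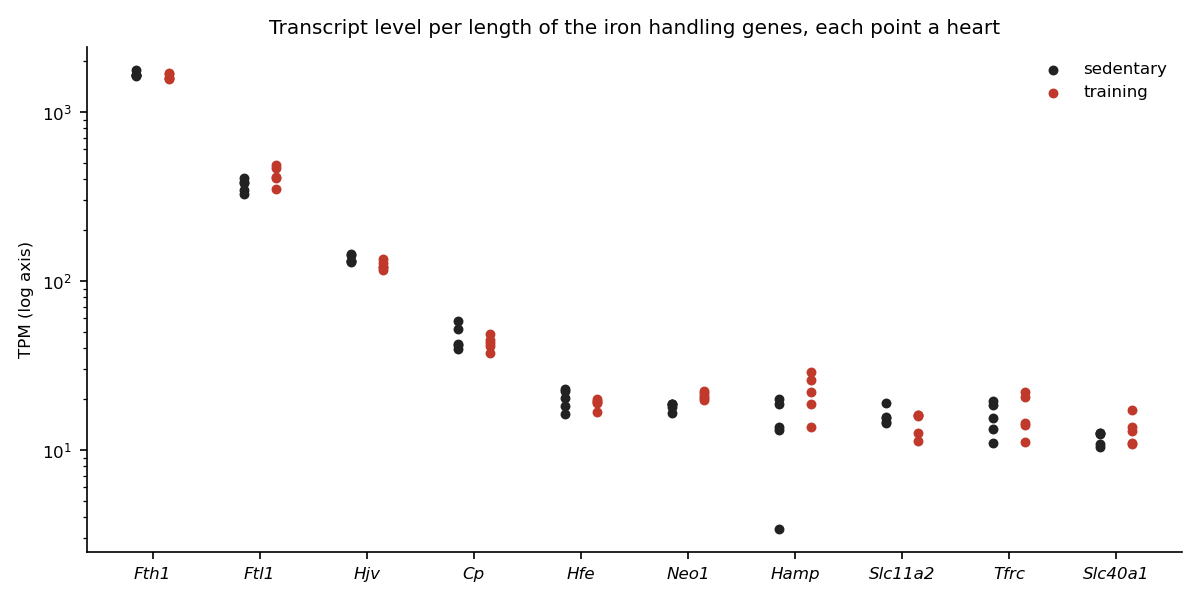
Transcript level of the 10 genes in TPM on a log axis, each point 1 heart, sedentary in black and training in red. Fth1 (median 1643 TPM), Ftl1 (394 TPM) and Hjv (130 TPM) stand above the 6 genes of the lower tier, and 1 sedentary heart lies far down for Hamp at 3.38 TPM.

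Hjv (ENSMUSG00000038403, chr3:96432424-96439496, plus strand, GRCm39), the BMP co-receptor, was lower in the training hearts. Training hearts 1 to 5 held 234.8, 226.5, 223.8, 239.3 and 240.01 CPM, and sedentary hearts 1 to 5 held 276.2, 273.9, 279.9, 274.2 and 274.6 CPM. Every training heart was below every sedentary heart, and the gap between the groups was wider than the range within either. The means were 233 ± 7.39 CPM (SD, n = 5) and 276 ± 2.46 CPM (SD, n = 5), a difference of -15.5% and a log2 fold change of -0.24 (SE 0.035).

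Hjv was also among the most even genes of these hearts. The highest sedentary heart stood 1.02 times above the lowest and the highest training heart 1.07 times, and the within-group SD of its log2 CPM was 0.034. Of 8496 genes that averaged 10 CPM or more, 1.12% had a smaller within-group SD, and the median gene had 0.086. The authors' TPM values, which carry no TMM correction, gave means of 124 ± 7.35 TPM in training and 136 ± 6.41 TPM in sedentary hearts (SD, n = 5 each). On that scale the groups overlapped, since training heart 5 at 135.2 TPM lay above 3 sedentary hearts. Under 19 other settings of the comparison Hjv was lower and called in each, with log2 fold changes between -0.26 and -0.19. These settings reuse the hearts whose lower Hjv was known when the list was drawn up. They show only how the value depends on processing.

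Neo1 (ENSMUSG00000032340, chr9:58781965-58944238, minus strand), the neogenin receptor that binds hemojuvelin, differed the other way. Training hearts 1 to 5 held 108.0, 102.9, 107.7, 107.3 and 109.7 CPM, and sedentary hearts 1 to 5 held 96.1, 94.1, 92.4, 103.1 and 103.04 CPM. All 5 training hearts were above the sedentary mean, but training heart 2 lay just under sedentary hearts 4 and 5, so the groups overlapped. The means were 107.1 ± 2.52 and 97.8 ± 5.03 CPM (SD, n = 5 each), with a log2 fold change of 0.13 (SE 0.041).

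The Neo1 call was close to the threshold. It was kept in 8 of 19 other settings, although the difference was positive in all 19. It was lost when training heart 1, 3, 4 or 5 or sedentary heart 1, 2 or 3 was left out, with log2 fold changes between 0.12 and 0.13, and on the expected counts of RSEM, with 0.13.

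Of the 10 genes, 2 were called, Hjv lower and Neo1 higher, beside 7.01% of the 15454 genes tested on STAR counts and 6.21% of the 15899 tested on expected counts, which served the ferritins. Hjv was the only 1 of the 10 whose groups did not overlap, beside 5.06% of genes on STAR counts and 5.14% on expected counts, of which all training hearts were below all sedentary hearts for 2.94% and 3.01%. The list was drawn up from this same contrast, so these shares are printed for scale and nothing is read from them.

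**Figure D2:**
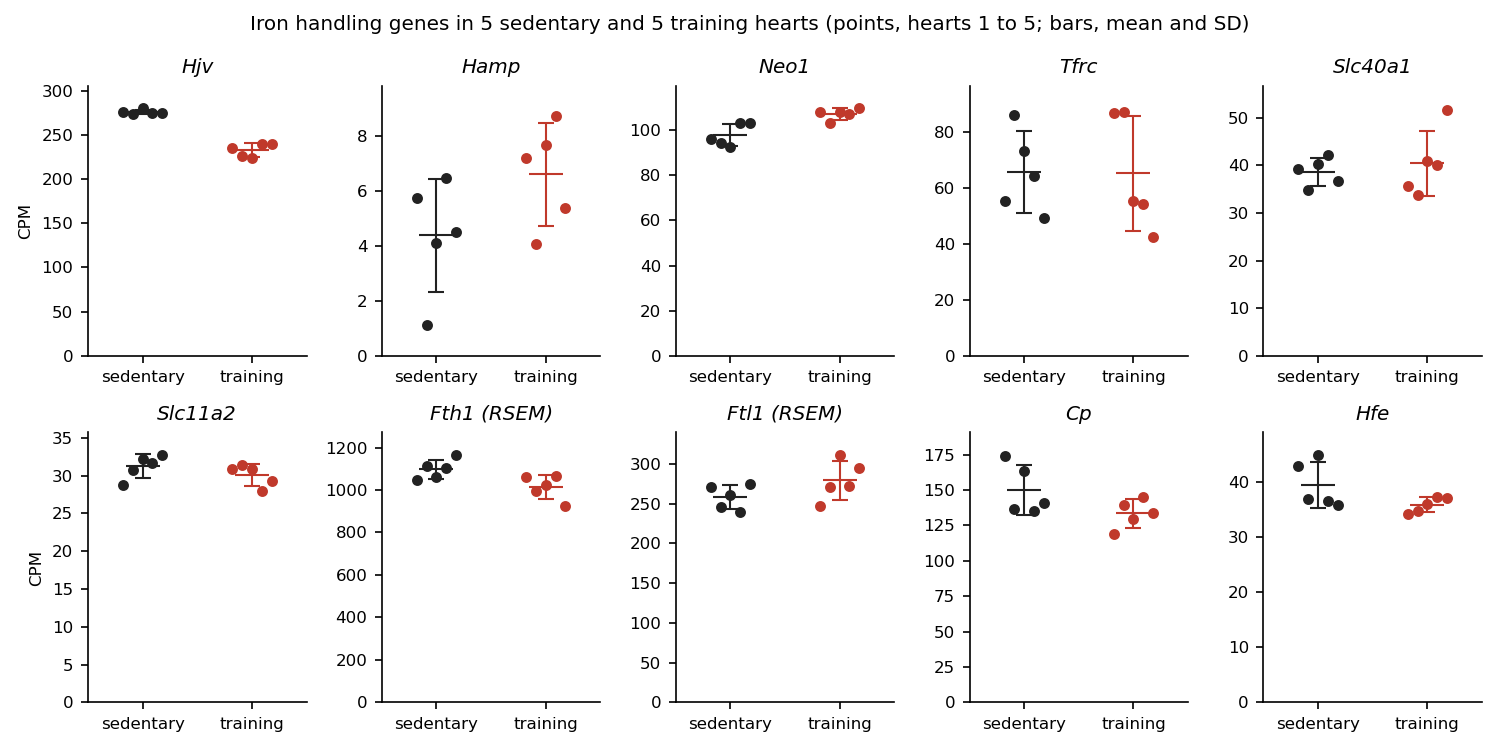
Level of each of the 10 genes in CPM, each point 1 heart, sedentary in black and training in red, with bars of mean and SD. Fth1 and Ftl1 are from expected counts. The 5 training hearts lie below the 5 sedentary hearts for Hjv (233 against 276 CPM), whereas the groups overlap for the other 9 genes.

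Hfe (ENSMUSG00000006611, chr13:23886017-23894914, minus strand), an MHC class I-like protein that takes part in hepcidin control in the liver, was not called. Its values were 34.3, 34.8, 36.0, 37.3 and 37.1 CPM in training hearts 1 to 5 and 43.0, 37.0, 44.8, 36.5 and 35.9 CPM in sedentary hearts 1 to 5. The sedentary mean was set by hearts 1 and 3, while the other 3 sedentary hearts lay among the training hearts. The log2 fold change was -0.14 (SE 0.064), with 35.9 ± 1.36 against 39.5 ± 4.15 CPM (SD, n = 5 each), and was -0.083 without sedentary heart 3.

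Hamp (ENSMUSG00000050440, chr7:30641766-30643990, minus strand), which encodes hepcidin, was the most variable of the 10. Training hearts 1 to 5 held 7.19, 4.07, 7.68, 8.72 and 5.37 CPM, and sedentary hearts 1 to 5 held 5.74, 1.14, 4.10, 6.49 and 4.49 CPM. The groups overlapped over most of their range, and sedentary heart 2 was lowest of all. The means of 6.61 ± 1.87 and 4.39 ± 2.05 CPM (SD, n = 5 each) gave a log2 fold change of 0.58 (SE 0.31), not called. The gene rested on 39 to 287 counts per heart. Of the genes that averaged 10 CPM or more, 99.9% had a smaller within-group SD. Hamp itself lay below that level, so it was set against genes with less counting error. Leaving out sedentary heart 2 brought the log2 fold change down to 0.35, still not called.

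Atrial markers also differed between the hearts. The summed level of 6 atrial markers, Nppa, Sln, Myl4, Myl7, Bmp10 and Dkk3, was 6230, 5409, 7617, 6633 and 5053 CPM in training hearts 1 to 5 and 6837, 2789, 4619, 4836 and 2809 CPM in sedentary hearts 1 to 5. Sedentary heart 2, lowest in Hamp, also had the lowest atrial sum. The 3 hearts with the highest Hamp, training hearts 4, 3 and 1, were all among the 4 with the highest atrial sums. Other hearts did not match in this way. Sedentary heart 5, at an atrial sum of 2809 CPM, held 4.49 CPM of Hamp against 1.14 CPM in sedentary heart 2. Training heart 2, at an atrial sum of 5409 CPM, held only 4.07 CPM of Hamp. With the atrial score as a covariate the log2 fold change of Hamp was -0.088 (SE 0.30), against 0.58 without it. The cause of this shift was not tested. The same covariate left Hjv lower and called and left Neo1 at 0.13, not called. In RNA from whole hearts, fewer cells of a type and less RNA per cell cannot be told apart.

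Tfrc (ENSMUSG00000022797, chr16:32427556-32451612, plus strand), the transferrin receptor with the 4 elements printed above, varied widely in both groups. Training hearts 1 to 5 held 86.7, 86.9, 55.3, 54.0 and 42.5 CPM, and sedentary hearts 1 to 5 held 55.2, 85.9, 73.2, 64.2 and 49.1 CPM. Both the highest and the lowest heart belonged to the training group. The means were 65.1 ± 20.4 and 65.5 ± 14.6 CPM (SD, n = 5 each), with a log2 fold change of -0.0073 (SE 0.19), and 99.4% of the compared genes had a smaller within-group SD.

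Tfrc is also a receptor of red cell precursors. The summed level of 8 erythroid markers was 39.2 to 98.9 CPM in training and 60.4 to 142 CPM in sedentary hearts, with none at 0 in all hearts. Only 5 of the 8 had enough counts to be tested. None of these 5 was called, and their median log2 fold change was -0.43. The part of blood cells in the spread of Tfrc was not tested.

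Slc11a2 (ENSMUSG00000023030, chr15:100285776-100322953, minus strand), the divalent metal transporter that carries iron out of endosomes, was even across hearts. It ranged from 28.0 to 31.4 CPM in training hearts and from 28.7 to 32.7 CPM in sedentary hearts. The groups overlapped over most of this span. The log2 fold change was -0.054 (SE 0.049), not called, and was -0.029 without training heart 4 and -0.083 without sedentary heart 1.

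Slc40a1 (ENSMUSG00000025993, chr1:45947211-45965683, minus strand), the iron exporter ferroportin, held 35.8, 33.8, 40.9, 40.0 and 51.5 CPM in training hearts 1 to 5 and 39.3, 34.7, 40.2, 42.1 and 36.7 CPM in sedentary hearts 1 to 5. Training heart 5 was the highest of the 10 hearts and training heart 2 the lowest. The log2 fold change was 0.063 (SE 0.095), and without training heart 5 it was -0.039. With another single heart left out it ranged up to 0.12.

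Cp (ENSMUSG00000003617, chr3:20011090-20063930, plus strand) encodes ceruloplasmin, the copper oxidase that loads exported iron onto transferrin. Its values were 119, 139, 129, 145 and 134 CPM in training hearts 1 to 5 and 174, 136, 164, 135 and 141 CPM in sedentary hearts 1 to 5. No training heart reached the sedentary mean, but 3 sedentary hearts lay within the training range, and the log2 fold change of -0.17 (SE 0.074) was not called. As for Hfe, sedentary hearts 1 and 3 were the highest of the 10, and without sedentary heart 1 the log2 fold change was -0.11.

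Ferritin values came from expected counts, because many reads of the light chain match other places in the genome. For each gene 1 transcript was searched, which for Hfe had 516 bases against 2164 in the authors' gene model. Of the 870 windows of 100 bases in the main Ftl1 transcript, 528 (60.7%) had an exact copy elsewhere in GRCm39. The searched transcripts of the other 9 genes had 0 such windows. Uniquely mapped counts of Ftl1 were accordingly 43.1% to 47.5% of its expected counts, while those of Fth1 were 100.4% to 100.6%. The Ftl1 level thus depends on how RSEM shared reads with the copies, of which Ftl2-ps and Ftl1-ps1 were given means of 5.73 and 3.97 CPM from expected counts.

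Fth1 (ENSMUSG00000024661, chr19:9957911-9962462, plus strand), the heavy chain that oxidizes iron, held 1063, 993, 1024, 1067 and 926 CPM in training hearts 1 to 5 and 1048, 1111, 1063, 1102 and 1165 CPM in sedentary hearts 1 to 5. All 5 training hearts lay under the sedentary mean, and the groups overlapped between 1048 and 1067 CPM. The means were 1014 ± 58.1 and 1098 ± 45.6 CPM (SD, n = 5 each), with a log2 fold change of -0.11 (SE 0.051), not called.

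Ftl1 (ENSMUSG00000050708, chr7:45107367-45109308, minus strand), the light chain that helps iron form its core, held 247, 271, 311, 272 and 296 CPM in training hearts 1 to 5 and 270.5, 246, 261, 239 and 275 CPM in sedentary hearts 1 to 5. Of the training hearts 4 were above the sedentary mean, and the ranges overlapped. The log2 fold change was 0.11 (SE 0.062), not called, with 279 ± 24.7 against 258 ± 15.5 CPM (SD, n = 5 each). On uniquely mapped counts alone it was 0.09 (SE 0.060), and on expected counts without training heart 3 it was 0.070.

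The ratio of heavy to light chain, computed from TPM, was 4.53, 3.86, 3.46, 4.14 and 3.37 in training hearts 1 to 5 and 4.09, 4.76, 4.31, 5.04 and 4.68 in sedentary hearts 1 to 5. The mean was 3.87 ± 0.482 in training and 4.58 ± 0.376 in sedentary hearts (SD, n = 5 each), and 2 training hearts lay within the sedentary range. Since the ratio combines values that the choice of genes had already used, it was not tested.

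**Figure D3:**
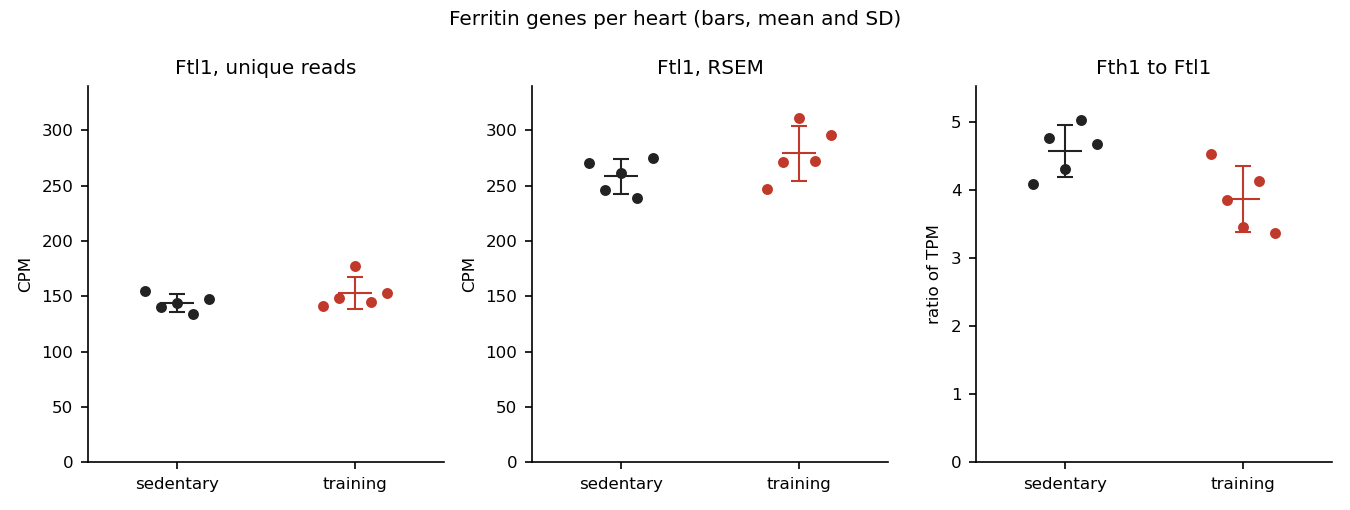
Ferritin light chain Ftl1 in CPM from uniquely mapped counts (left) and from expected counts (middle), and the TPM ratio of Fth1 to Ftl1 (right), each point 1 heart, sedentary in black and training in red, with bars of mean and SD. The Ftl1 level is higher with expected counts in every heart, and the ratio averages 3.87 in training and 4.58 in sedentary hearts, with overlap.

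Genes most like Hjv from heart to heart were found from log2 CPM after each group's mean was subtracted. Over 10 hearts and 8495 other genes that averaged 10 CPM or more, Rbm7 came first with Pearson's r = 0.93, then Zcchc7 and Eme2 with 0.92 each, and Abhd18 followed with 0.90. These points share library size and preparation, these 4 were picked from the 5 highest of all genes compared, and none of the 4 was called between groups. The within-group SD of Hjv was only 0.034 in log2 CPM, so little spread lay behind these values. Whether they exceed what chance gives among so many genes was not tested.

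Further iron genes, 80 in number and grouped by role, were compared in the same fit, and 73 had enough counts. The lists by role were chosen with earlier results of these data known. Their counts of calls and signs, here and below, are set beside all genes for scale, and nothing is read from them. Of these, 4 were called higher and 7 lower, or 11 of 73 beside the 7.01% of all genes called (2.75% higher and 4.26% lower). With library totals in place of TMM factors the split was 8 higher and 2 lower. The median log2 fold change over the 73 genes was -0.0076, against 0.00026 over all genes tested.

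Genes that act on hepcidin upstream, namely BMP ligands, their receptors and SMAD proteins, the co-receptor family and proteases, held 5 of the 11 calls. Of 17 tested, 14 had a log2 fold change above 0, with 4 called higher and 1 lower and a median of 0.15, beside 7738 of the 15454 genes above 0. With library totals 15 of the 17 were above 0, with 7 called higher and none lower, and Furin lost its call. Bmp2, a ligand that hemojuvelin can bind, rose from 2.20 ± 0.303 to 3.33 ± 0.348 CPM (SD, n = 5 each), a log2 fold change of 0.60 (SE 0.12, edgeR adjusted p = 0.0223). Bmp4, a related ligand, rose from 6.95 ± 0.933 to 9.48 ± 0.640 CPM, by 0.45 on the log2 scale (SE 0.091, edgeR adjusted p = 0.0231). Smad5, which carries the BMP signal to the nucleus, rose by 0.15 on the log2 scale (SE 0.040, edgeR adjusted p = 0.0649).

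Some genes that BMP signaling commonly induces were added after their values were seen. None of them was called, with Id1 below 0 and Smad6, Smad7 and Atoh8 above. The log2 fold change was -0.23 (SE 0.11) for Id1, 0.34 (SE 0.12) for Smad6, 0.17 (SE 0.13) for Smad7 and 0.09 (SE 0.097) for Atoh8. It was -0.043 for Bmp6, the ligand best known for hepcidin control, not called either. Furin, the protease that can cut hemojuvelin and hepcidin precursors, fell from 142 ± 7.37 to 123 ± 7.93 CPM (SD, n = 5 each), a log2 fold change of -0.20 (SE 0.051, edgeR adjusted p = 0.0482). For Bmp2, Bmp4 and Furin the training and sedentary hearts did not overlap.

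The repulsive guidance molecule family, to which hemojuvelin belongs, gave a different value for each member. Rgmb rose in the same hearts in which Hjv was lower, from 24.6 ± 1.62 to 29.0 ± 0.726 CPM (SD, n = 5 each), a log2 fold change of 0.24 (SE 0.050, edgeR adjusted p = 0.0237) with no overlap between groups. Rgma was at 40.9 ± 3.00 and 38.3 ± 1.12 CPM in training and sedentary hearts, 0.10 on the log2 scale (SE 0.051, edgeR adjusted p = 0.310), and 0.058 without training heart 3. Per length the order was Hjv at a median of 130 TPM, Rgma at 11.7 TPM and Rgmb at 5.77 TPM, so Hjv was the most abundant of the family in these hearts.

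**Figure D4:**
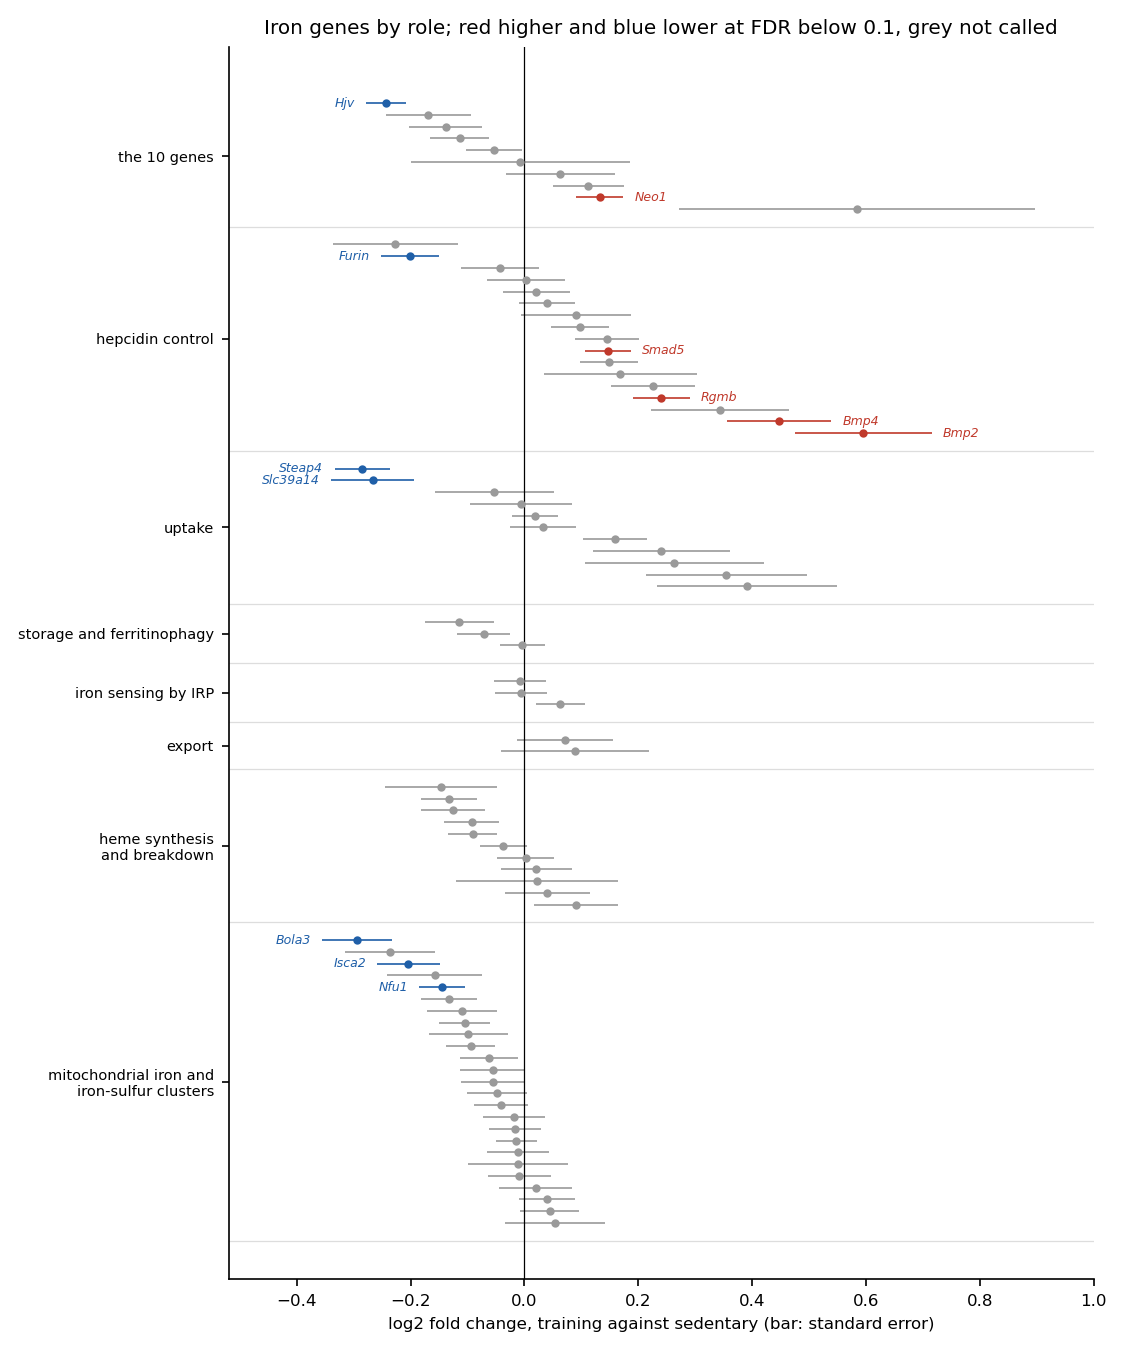
Log2 fold change, training over sedentary, for the 10 genes and for 72 further iron genes by role, with bars of 1 standard error. Called genes are named in red (higher) or blue (lower) and the rest are grey, with the 4 higher calls among the further genes all in the hepcidin control list.

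Of 11 tested genes of iron uptake, 2 were called lower and none higher, while 7 had a log2 fold change above 0 and the median was 0.032. Steap4, a metalloreductase, fell from 42.0 ± 2.25 to 34.5 ± 1.71 CPM (SD, n = 5 each), a log2 fold change of -0.28 (SE 0.049, edgeR adjusted p = 0.0120), and every training heart was below every sedentary heart. Slc39a14, a transporter of iron not bound to transferrin, fell by 0.27 on the log2 scale (SE 0.074, edgeR adjusted p = 0.0647) with overlap. Trf, which encodes transferrin itself, was not called, with a log2 fold change of 0.24 (SE 0.12).

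The iron regulatory proteins that read the printed hairpins showed no called difference. The log2 fold change was -0.0057 (SE 0.046) for Aco1 and -0.0076 (SE 0.045) for Ireb2. None of 3 genes of ferritin loading and breakdown and none of 2 further export genes were called.

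Iron-sulfur cluster genes gave 3 calls, all lower. Of 25 tested genes of mitochondrial iron and iron-sulfur clusters, 21 were below 0, with 3 called lower and a median of -0.055, beside 49.9% of all genes below 0 and 4.26% called lower. This count rested on the scaling, since library totals in place of TMM factors left 13 of the 25 below 0 and 1 called lower, with a median of -0.0024 beside 0.053 over all genes. Bola3, which helps deliver clusters to mitochondrial enzymes, fell from 92.4 ± 3.04 to 75.3 ± 7.75 CPM (SD, n = 5 each), a log2 fold change of -0.29 (SE 0.062, edgeR adjusted p = 0.0246). Isca2 and Nfu1, which act in the same late steps, fell by 0.20 (SE 0.055, edgeR adjusted p = 0.0588) and 0.14 (SE 0.040, edgeR adjusted p = 0.0649) on the log2 scale.

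Single hearts and the atrial score bore on these calls. Bmp2, Bmp4, Rgmb, Steap4 and Bola3 were called in all 10 fits that left out 1 heart. Furin lost its call without training heart 4 or sedentary heart 3, Slc39a14 without training heart 1, 3 or 4 or sedentary heart 3 or 4, and Isca2 without training heart 3, 4 or 5 or sedentary heart 2, 3 or 4. Nfu1 lost it without training heart 3, 4 or 5 or sedentary heart 2, 4 or 5, and Smad5 without training heart 3, 4 or 5 or sedentary heart 2, 3, 4 or 5. Where these 5 genes lost their call, edgeR's adjusted p was between 0.101 and 0.163 and the sign was kept. With library totals in place of TMM factors Furin, Slc39a14, Isca2 and Nfu1 were not called, with edgeR adjusted p between 0.113 and 0.191 and the sign kept. With the atrial score as a covariate Furin alone of the 11 stayed called, and the log2 fold changes of the other 10 kept their sign.

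The tissue and its depth were checked against markers. Libraries held 29461697 to 35945417 counts in training and 35196993 to 39431030 in sedentary hearts, so the training libraries were on the whole the shallower. Cardiomyocyte markers summed to 67752 to 72645 CPM in training and 71392 to 81231 CPM in sedentary hearts, with 1 of 10 called lower. Skeletal muscle and liver are the tissues best known for Hjv, and 10 skeletal muscle markers summed to at most 8.69 CPM. Of these, 6 had enough counts to be tested and none was called. The 6 hepatocyte markers summed to 9.42 to 49.1 CPM in training and 8.15 to 65.4 CPM in sedentary hearts. Nearly all of this was Cyp2e1 (7.53 to 65.03 CPM). Only 2 of the 6 could be tested and neither was called, while Alb was at most 0.0584 CPM and Fgb was 0 in every heart. Of 6 atrial markers 2 were called higher, Dkk3 and Sln. The 6 fibroblast markers summed to 1104 to 1364 CPM in training and 958 to 1173 CPM in sedentary hearts, with 2 called higher, and the 6 endothelial markers to 847 to 947 and 907 to 974 CPM, with 1 called lower. Adipocyte markers, 5 in number, summed to 19.8 to 165 and 17.3 to 134 CPM, with none called and a median log2 fold change of 0.84, and 10 macrophage markers to 383 to 481 and 397 to 520.3 CPM, with none called. The part of these cell types in the calls of Bmp2, Bmp4, Rgmb and the other iron genes was not tested. Bmal1, a core gene of the circadian clock, fell by 1.19 on the log2 scale (SE 0.21, edgeR adjusted p = 0.0154), the hour of sampling is not given in the sources used here, and the part of sampling hour in the iron genes was not tested.

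**Figure D5:**
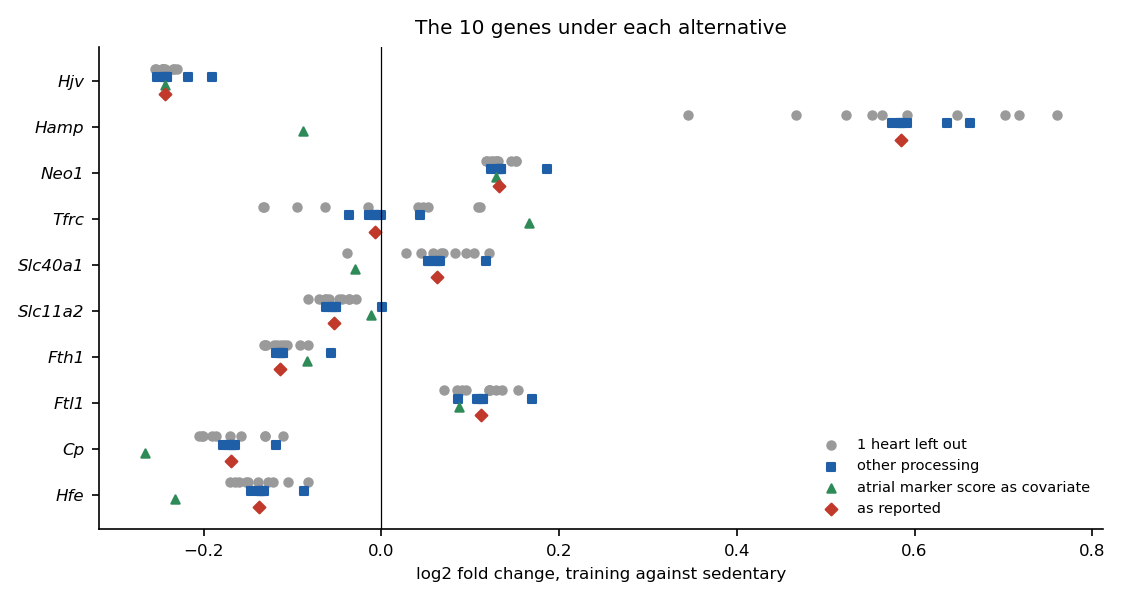
Log2 fold change of the 10 genes in the comparison as reported and under each other setting, 1 point per setting. Hjv stays between -0.26 and -0.19 and Neo1 above 0, whereas the points of Hamp, Tfrc, Slc40a1 and Slc11a2 fall on both sides of 0.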

How the data were processed

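RNA of 10 whole hearts (5 training, 5 sedentary) was sequenced as directional poly-A libraries with single reads of 100 bases in 1 pool. The authors aligned reads with STAR 2.7.10a to GRCm39 and deposited the raw count of uniquely mapping reads for each gene. They also deposited RSEM 1.3.3 expected counts, which share reads between matching genes, and TPM values, which divide by gene length. The strand setting of RSEM is not given in the sources used here.

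Reverse-strand counts were tested with edgeR 4.0.16 under R 4.3.3 (low counts removed by filterByExpr, TMM scaling, quasi-likelihood F test, Benjamini-Hochberg adjustment over all genes, FDR below 0.1). Expected counts, rounded to whole numbers, were used likewise for Fth1 and Ftl1. Each SE was derived from the F statistic, as the size of the log2 fold change divided by the square root of F. Lines that name no gene were left out (multimapping reads 17.9% to 19.2%, no feature 4.15% to 4.89%). GENCODE M39, newer than the annotation used by the authors, gave names for 56017 of 56748 identifiers and the UTR sequences, and copies were sought with blastn 2.17.0. The steps were tested on simulated data in which 200 genes were changed, each by more than Hjv or Neo1 differed here. Recovery of differences as small as theirs was not tested. Precision is that of 5 hearts per group, each labelled a separate mouse.

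The 10 genes and all lists were chosen with earlier results of these data known. Named were the 10 genes, every called gene among the other iron genes, Rgma, Rgmb, Aco1 and Ireb2, and the 5 genes most like Hjv by Pearson's r. Id1, Smad6, Smad7, Atoh8, Bmp6, Trf and Bmal1 were added after their values were seen, and a pair of genes meeting this rule is not reported here. Alternatives were DESeq2 1.42.0, other scalings, filters and strands, the other kind of count, a replicate block, an atrial score and leaving out each heart.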

Additional observations from a re-analysis of the deposited data

Results flagged for a closer look

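Of the 46 groups of 5 hearts checked for a heart far from the others, 1 was picked out, and chance gives about 1 in 20. Rgma in sedentary heart 5 was at 40.2 CPM, against 37.5 to 38.2 CPM in the other 4 sedentary hearts. None of the 10 genes had such a heart in either group.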

How the results depend on the processing

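Hjv was called in all 19 alternatives, which reuse the hearts whose lower Hjv was already known. The number of genes called was 1084 on STAR counts and 988 on expected counts. It was 94 and 50 with the atrial score, 505 and 440 at an FDR below 0.05, and 512 to 1490 and 445 to 1332 with 1 heart left out. Library totals alone gave 1368 (1029 higher, 339 lower) against 425 higher and 659 lower as reported, and 994 on expected counts (730 higher, 264 lower), with the median of all genes shifted by 0.053. DESeq2 called 1473 and 1449. Among the other iron genes 11 calls became 1 with the atrial score, 6 at an FDR below 0.05, 16 with DESeq2 and 5 to 15 with 1 heart left out. Of the 10 genes, 1 rather than 2 was called with no filter, on the other kind of count, with the atrial score and at an FDR below 0.05, and 1 to 2 with 1 heart left out. Directions turned for Hamp with the atrial score (-0.088), for Tfrc with library totals (0.044), the atrial score (0.17) and 1 heart left out (-0.13 to 0.11), and for Slc40a1 with the atrial score (-0.030) and 1 heart left out (-0.039 to 0.12). They also turned for Slc11a2 with library totals (0.00080), Aco1 with library totals (0.048), the atrial score (0.048) and 1 heart left out (-0.026 to 0.020), and Ireb2 with library totals (0.045) and 1 heart left out (-0.041 to 0.011). The cause was not tested. The labels do not say that mouse numbers pair the hearts. Residuals of same-numbered hearts correlated at -0.097 to 0.16 and 3 of 10 hearts matched their own number best. These values cannot show whether same-numbered hearts were handled together. A replicate block lowered the SE of Hamp from 0.31 to 0.18, while that of Hjv went from 0.035 to 0.040. With a replicate block 1137 genes were called, 975 on expected counts and 10 of the other iron genes, and 2 of the 10 genes, Hjv and Hamp (0.66), in place of Hjv and Neo1. Depth limits Hamp, with 39 counts in the lowest heart.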

Other observations

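Of the 80 further iron genes, 7 had too few counts to be compared. Tfr2, the receptor that joins Hfe in hepcidin control in the liver, was between 0.027 and 0.12 CPM, and Tmprss6, the protease that removes hemojuvelin from the liver cell surface, was between 0.025 and 0.11 CPM. Erfe, the hormone by which red cell precursors lower hepcidin, reached 0.14 CPM at most, Steap1 0.21 CPM, Hephl1 0.12 CPM and Fdx2 0.24 CPM. Ftmt, the mitochondrial ferritin, had a count of 0 in all 10 hearts, which allows up to 3 counts, or 0.10 CPM in the smallest library. These limits cover counting error only.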
